A study of Mus musculus with 6 samples.

Results

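Cells carry a set of proteins that detect foreign or misplaced nucleic acid in the cytosol, and the mRNAs of 9 of them are described here. They are Ddx58, Ifih1 and Dhx58, which encode the helicase sensors RIG-I, MDA5 and LGP2, Mavs, Tbk1 and Irf3, which carry their signal, and Zbp1, Adar and Eif2ak2, which encode proteins that bind Z-form or double-stranded RNA. They were taken by gene symbol, 1 row each of the 22027 genes in the deposited table. All 9 passed the filter on low values, a mean of at least 10 normalised reads over the 6 libraries, as did 11591 genes in all.

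RNA came from RAW 264.7 cells, a mouse macrophage line derived from a tumour induced by Abelson leukaemia virus, labelled WT in genotype. Libraries labelled siTET3 (n = 3) came from cells given 1 siRNA against Tet3, which encodes an enzyme that oxidises methylated cytosine. Libraries labelled siCTL (n = 3) came from cells given a non-targeting siRNA. All cells received 10 pmol of siRNA with a lipid reagent and were collected 48 h later. The sample titles alone give the groups, because the treatment field says siTET3 transfection for every sample. A single siRNA sequence and a single transformed line limit what the comparison can represent, and the labels do not say whether replicates were grown apart. The p-values therefore cover the spread of these 6 libraries alone, and that spread may be technical.

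RIG-I and MDA5 recognise RNA by its ends or by its double-stranded length and then engage MAVS on the mitochondrial membrane. MAVS recruits the kinase TBK1, which phosphorylates the transcription factor IRF3 and so starts the transcription of type I interferon genes. In macrophages, secreted interferon then raises many of the sensors themselves through factors that bind the interferon-stimulated response element (ISRE). ZBP1 and the long form of ADAR1 share a domain that binds the left-handed Z form of nucleic acid, and PKR, the product of Eif2ak2, halts translation when it binds double-stranded RNA.

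Because the ISRE links these genes to interferon, the windows around their transcription starts, 250 bases before and 50 from the start on, were searched in RefSeq sequence on GRCm38.p6. The table matched 7 of the 9 members, with 3 starts for Adar, and left Dhx58 and Zbp1 as names only. The ISRE core was written as GAAANNGAA and searched on both strands. It was present in 8.56% of all 32851 windows of that length, and in 4 of the 9 windows here. By gene, 9.76% of 27025 symbols held it in some window, as did 4 of the 7 members, Ddx58, Ifih1, Adar and Eif2ak2. No window of Mavs, Tbk1 or Irf3 held these letters. The 30 bases around each core of the 4 members are shown in transcript direction with the core in capitals, except for a further core at the upstream edge of an Adar window.
Ddx58, minus strand, chr4:40239804-40239833: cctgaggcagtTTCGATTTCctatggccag
Ifih1, minus strand, upstream core, chr2:62646349-62646378: aagaattcgcgTTCCCTTTCctgtttctca
Ifih1, minus strand, downstream core, chr2:62646206-62646235: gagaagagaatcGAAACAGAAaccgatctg
Eif2ak2, minus strand, chr17:78882533-78882562: tccgccggGAAAACGAAACAGAAgagaacc
Adar, plus strand, chr3:89730738-89730767: ttttcaaggaaacGAAAGTGAActctgggg

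Counting the start as base 1, the core lay at bases 4 to 12 of Ddx58 on the opposite strand and at bases 33 to 41 of Ifih1, whose other core lay on the opposite strand at -112 to -104, negative numbers being bases before the start. Eif2ak2 held a pair of overlapping cores at bases 19 to 27 and 25 to 33. In Adar the core was in the window of the start at 89730718 alone, at bases 34 to 42 and again at -249 to -241. GENCODE transcripts that begin in this window include those coding for 1178 and 1152 residues, the long form of ADAR1 with the Z-binding domain. The transcript coding for 930 residues, the short form, begins at 89715022, and no core was found in the windows at 89715022 or 89715238. The read counts are per gene, so the forms cannot be told apart in the values below.

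Other motifs were sparse. The GAS element, TTCNNNGAA, the gamma-interferon activated site, which reads the same on both strands, was in 8.30% of all windows and occurred in Eif2ak2 at -178 to -170 and in the same Adar window at bases 23 to 31. The NF-kB form GGGANNTTC, searched on both strands and held by 3.94% of windows, was in none of the 9 windows. The 250 bases before the start are shown for Ifih1 and Eif2ak2 with the ISRE core or GAS in capitals, and for Tbk1, which had 37 CG pairs in its window and neither motif, as a contrast. The windows of Ifih1 and Eif2ak2 had 14 and 17 CG pairs. Tbk1 had the most of all the windows and does not stand for those without either motif. Of these, Mavs and Irf3 had 19 and 18, and the Adar windows at 89715022 and 89715238 had 6 and 34. A match in letters is not evidence of binding.
Ifih1, minus strand, chr2:62646256-62646505: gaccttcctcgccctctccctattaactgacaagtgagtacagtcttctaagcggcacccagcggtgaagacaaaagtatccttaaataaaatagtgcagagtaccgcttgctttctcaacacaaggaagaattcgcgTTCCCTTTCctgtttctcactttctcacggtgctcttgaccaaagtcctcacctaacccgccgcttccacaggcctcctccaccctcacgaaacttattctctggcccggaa
Eif2ak2, minus strand, chr17:78882573-78882822: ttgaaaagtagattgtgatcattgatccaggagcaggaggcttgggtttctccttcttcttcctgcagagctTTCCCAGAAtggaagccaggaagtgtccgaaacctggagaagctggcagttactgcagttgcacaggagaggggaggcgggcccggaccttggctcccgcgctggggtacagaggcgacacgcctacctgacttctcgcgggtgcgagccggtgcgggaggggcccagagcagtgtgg
Tbk1, minus strand, chr10:121586795-121587044: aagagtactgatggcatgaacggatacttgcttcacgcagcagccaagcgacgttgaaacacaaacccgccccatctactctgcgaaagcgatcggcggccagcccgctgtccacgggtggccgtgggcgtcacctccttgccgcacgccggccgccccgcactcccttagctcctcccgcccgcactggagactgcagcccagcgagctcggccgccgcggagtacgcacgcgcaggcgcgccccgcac

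The libraries held between 29587171 and 61709131 reads on genes, and values are reads divided by 1 size factor per library, called normalised reads. Tet3 itself had 1939, 1980.4 and 1950.4 normalised reads in libraries labelled siTET3, against 2171, 1911 and 2027 in siCTL libraries, and did not separate the groups (limma adjusted p = 0.699), so every direction is that of the labels. The 10 macrophage markers all passed the filter on low values, and their sum ran from 487581 to 519216 in libraries labelled siTET3 and from 485758 to 573190 in siCTL libraries. Lyz2 made up most of that sum, with means of 363030 in libraries labelled siTET3 and 370427 in siCTL libraries. Limma called 0 of these markers. Their value ranges were apart for 3. Ptprc was higher in libraries labelled siTET3, beside 16.1% of all genes tested that were apart in that direction. Itgam and Spi1 were lower, and the share over all genes in that direction is not given here. No change of cell type was drawn from these 3. Of 20 markers of other cell types, 10 were at 0 in every library, among them Cd3e, Epcam and Col1a1. The sum of the 20 was 77.6 to 113 in libraries labelled siTET3 and 78.7 to 88.7 in siCTL replicates 1 and 3, but 466 in siCTL replicate 2, where the fibroblast genes Col1a2 and Pdgfra stood at 286 and 109. Col1a1 and Dcn, the other fibroblast markers listed, were at 0 in siCTL replicate 2, so the fibroblast markers did not rise as a set. That library also deviated most with gene base content (r = 0.39 across genes between its deviation and GC percent, genes not being independent). In siCTL replicates 1 and 3 r was -0.11 and 0.15. In libraries labelled siTET3 it was -0.28, -0.30 and -0.35, so the groups did not overlap in base content. The part of the fibroblast genes or of base content in the results was not tested.

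Of the 9 members, 3 rose in libraries labelled siTET3 and none fell. These were Zbp1, Ddx58 and Ifih1, each an RNA or Z-nucleic acid sensor (limma on log2 values, adjusted p under 0.05 over all genes). Among all genes tested 0.293% passed in that direction and 0.0604% in the other. At an unadjusted p under 0.05, 6 members were higher, beside 6.25% of all genes tested, and 0 lower, beside 6.95%, and 2 count models on recovered reads called 0 lower. Of these, edgeR called the same 3 members higher, beside 0.278% of all genes higher and 0.0609% lower, and DESeq2 called 6 higher, beside 1.56% higher and 1.42% lower. The value ranges of the groups were apart, with the siTET3-labelled libraries higher, for 7 members, against 16.1% of all genes tested, and they overlapped for Mavs and Irf3. The median log2 change of the 9 was 0.54, beside -0.0049 over all genes tested, and 8 of 9 were positive, beside 49.3% of genes. The number of members called changed with the library left out, as did the share called over all genes. Without siTET3 replicates 1, 2 and 3 in turn limma called 0 members, with shares over all genes of 0.0259%, 0.0173% and 0.0173%, while at an unadjusted p under 0.05 the count was 6 members in each fit, beside 2.67%, 2.78% and 2.54% of all genes. Without siCTL replicates 1, 2 and 3 it called 2, 6 and 0 members, beside 0.19%, 1.7% and 0.0776% of all genes, and in the last of these 6 members were higher at an unadjusted p under 0.05, beside 5.37%. Zbp1, Ddx58, Ifih1, Dhx58, Adar and Eif2ak2 were the 6. With the base-content trend removed 3 members passed beside 0.354% of genes, and with scaling to the library total 2 passed beside 0.233%. In bulk libraries, more expressing cells and more RNA per cell cannot be told apart.

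**Figure D1:**
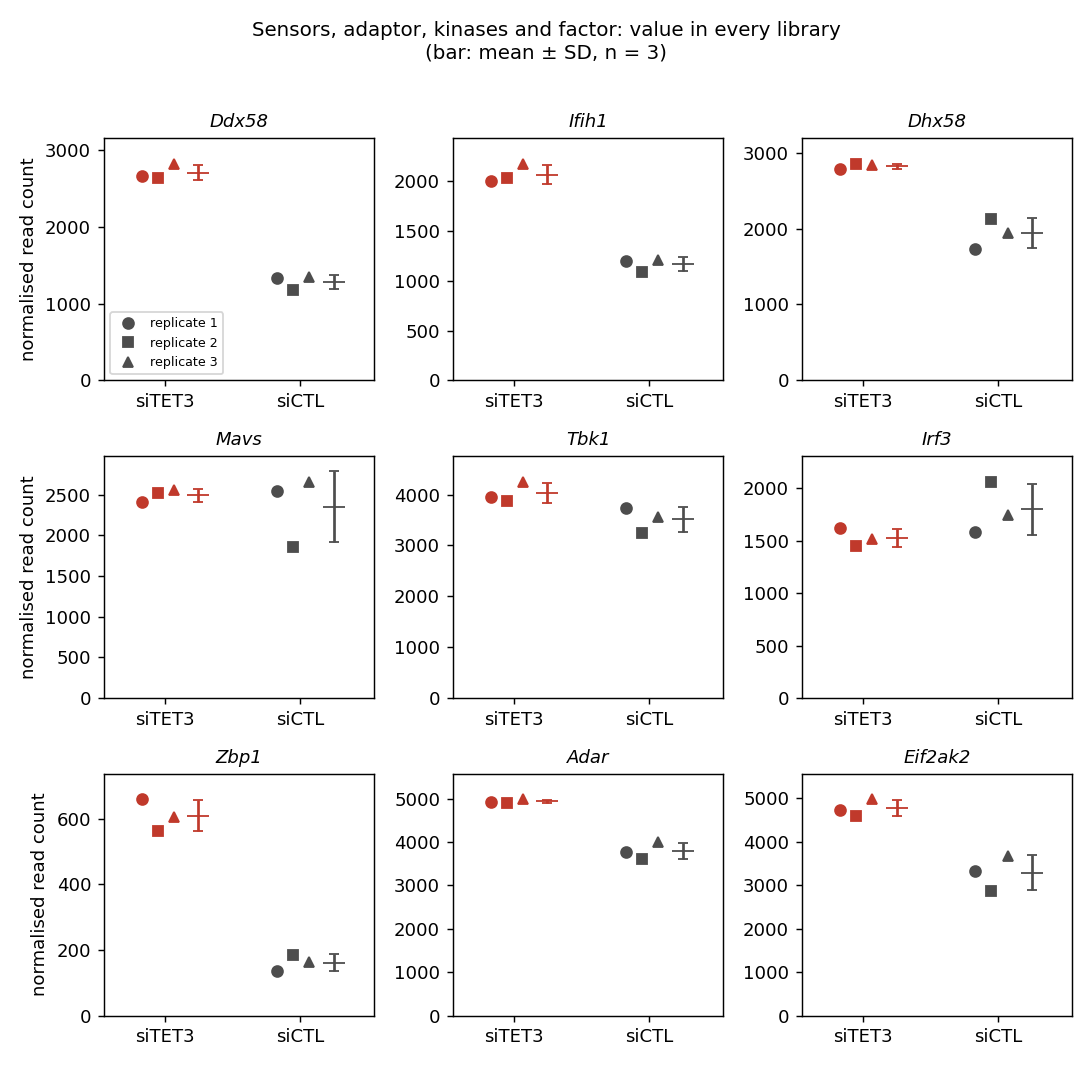
Normalised read count (vertical axis, from 0) of each member in every library, with siTET3-labelled libraries in red on the left and siCTL libraries in grey on the right. Symbols mark replicates and bars the mean ± SD over 3 libraries. The groups overlap for Mavs and Irf3 and are apart for the other 7 members.

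Zbp1 (ENSMUSG00000027514.14, GRCm38 chromosome 2, 173206612 to 173218923, minus strand), the Z-nucleic acid sensor that can set off necroptosis, had the largest change of the 9. It had 659, 564 and 607 normalised reads in libraries labelled siTET3, against 135, 186 and 164 in siCTL libraries. Every library labelled siTET3 lay far above the highest siCTL library, and the groups did not overlap. These values rested on 477 to 690 reads in libraries labelled siTET3 and on 117 to 258 reads in siCTL libraries. On the log2(value + 1) scale the change was 1.92 ± 0.15 (SE), a fold of 3.78 with a 95% interval of 2.96 to 4.83 (limma adjusted p = 0.00691). The exact two-sided permutation test gave p = 0.1, the smallest that 3 libraries against 3 allow. The limma adjusted p was 0.0222, 0.000842 and 0.0710 when siCTL replicates 1, 2 and 3 were left out in turn. Leaving out siTET3 replicates 1, 2 and 3 gave 0.0972, 0.0700 and 0.105. The call was thus lost when any 1 of these or siCTL replicate 3 was left out. The log2 change stayed between 1.80 and 2.03 in these 6 fits.

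Ddx58 (ENSMUSG00000040296.15, chromosome 4, 40203773 to 40239828, minus strand) encodes RIG-I, the sensor of short double-stranded and triphosphate-ended RNA. It had 2659, 2633 and 2815 normalised reads in libraries labelled siTET3, against 1328, 1178 and 1347 in siCTL libraries. The groups were far apart, and siCTL replicate 2 was the lowest of the 6 libraries. The log2 change was 1.07 ± 0.09 (SE), or 2.11-fold with a 95% interval of 1.81 to 2.45 (limma adjusted p = 0.00864). Leaving out siCTL replicates 1, 2 and 3 in turn gave a limma adjusted p of 0.0361, 0.000754 and 0.0756, and leaving out siTET3 replicates 1, 2 and 3 gave 0.125, 0.104 and 0.112. The log2 change was 1.01 to 1.11 in these fits, so the size varied little while the call was lost in 4 of them.

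Ifih1 (ENSMUSG00000026896.14, chromosome 2, 62595798 to 62646255, minus strand) encodes MDA5, the sensor of long double-stranded RNA. It had 2003, 2029 and 2173 normalised reads in libraries labelled siTET3, against 1204, 1085 and 1214 in siCTL libraries. The siTET3-labelled libraries were all higher and siCTL replicate 2 was the lowest of the 6. The log2 change was 0.83 ± 0.09 (SE), or 1.77-fold with a 95% interval of 1.53 to 2.06 (limma adjusted p = 0.0238). Its transcript had the lowest GC share of the 9 members, 42.8%, against a median of 49.7% over genes tested. With the base-content trend of each library removed, its log2 change was 0.60 in place of 0.83 and it no longer passed (limma adjusted p = 0.0615). Scaling to the library total also ended the call (limma adjusted p = 0.0571). Ifih1 passed without siCTL replicate 2, at a limma adjusted p of 0.00222, or 0.00108 where the trend was removed too. In the 5 fits that left out another library it did not pass, with a limma adjusted p of 0.0789 to 0.241.

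Dhx58 (ENSMUSG00000017830.15, chromosome 11, 100694884 to 100704271, minus strand) encodes LGP2, a helicase without signalling domains that tunes RIG-I and MDA5. It had 2780.0, 2848 and 2834 normalised reads in libraries labelled siTET3, against 1733, 2128 and 1946 in siCTL libraries. The groups did not overlap, and the siCTL libraries were the more spread, with siCTL replicate 2 the highest of them. The fold was 1.46, with a 95% interval of 1.24 to 1.73, and did not pass with all libraries (limma adjusted p = 0.14). Of the 6 fits that left out 1 library, Dhx58 passed only without siCTL replicate 2 (limma adjusted p = 0.00692). In the others its limma adjusted p reached 0.653. After the base-content trend was removed it passed as well, with a log2 change of 0.68 in place of 0.55 (limma adjusted p = 0.0166). An antisense gene model, Dhx58os, shares 141 exonic bases with Dhx58, and no source used here says whether reads were counted by strand, although the library kit was a stranded one.

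**Figure D2:**
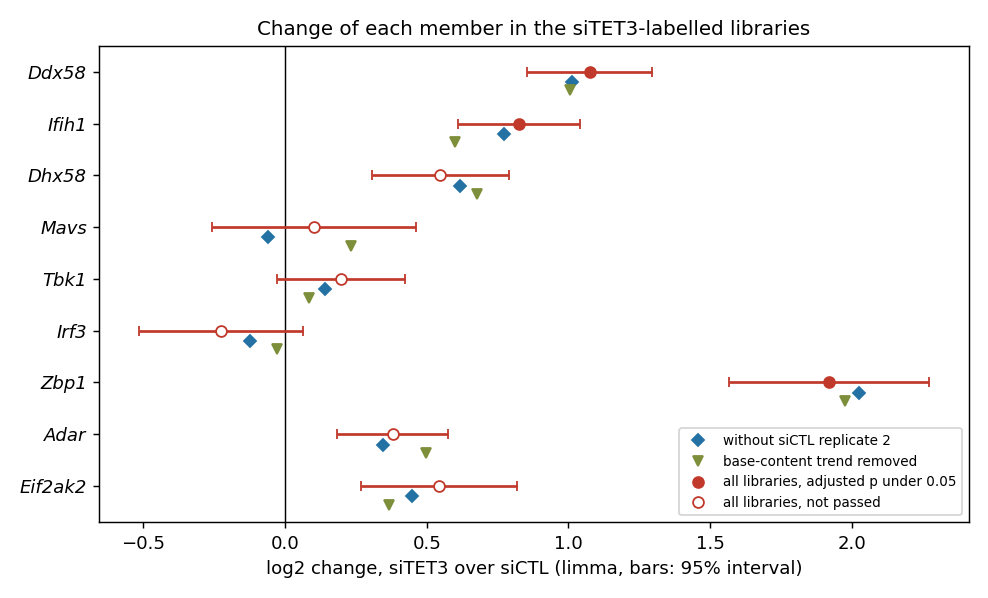
Log2 change of each member, siTET3-labelled over siCTL libraries (horizontal axis, limma, bars 95% interval), with filled circles for members past the threshold. Diamonds show the change without siCTL replicate 2 and triangles the change with the base-content trend removed. The order Zbp1, Ddx58, Ifih1 is shared by the fits with all libraries and without siCTL replicate 2, and Mavs changes sign without that library.

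The signalling proteins downstream of the helicases did not pass in any fit. Mavs (ENSMUSG00000037523.13, chromosome 2, 131234063 to 131248025, plus strand), the mitochondrial adaptor, had 2404, 2524 and 2553 normalised reads in libraries labelled siTET3, against 2541, 1853 and 2657 in siCTL libraries. The groups overlapped, and siCTL replicate 2 alone lay well below the other 5 libraries. The fold was 1.07, with a 95% interval from 0.837 to 1.38 (limma adjusted p = 0.685). The log2 change of 0.10 became -0.060 without siCTL replicate 2 (limma adjusted p = 0.573), while removal of the base-content trend gave 0.23, so no direction was drawn.

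Tbk1 (ENSMUSG00000020115.3, chromosome 10, 121546455 to 121586787, minus strand), the kinase of IRF3, had 3946, 3878 and 4251 normalised reads in libraries labelled siTET3, against 3733, 3239 and 3559 in siCTL libraries. The groups were apart by a narrow margin. The fold was 1.15, with a 95% interval from 0.981 to 1.34 (limma adjusted p = 0.380), and the log2 change of 0.20 became 0.084 with the base-content trend removed. Irf3 (ENSMUSG00000003184.15, chromosome 7, 44997648 to 45002848, plus strand), the transcription factor that TBK1 activates, was the 1 member with a negative log2 change. It had 1619, 1451 and 1514 normalised reads in libraries labelled siTET3, against 1583, 2059.5 and 1748 in siCTL libraries. The groups overlapped, and the highest value was that of siCTL replicate 2. The fold was 0.855, with a 95% interval from 0.700 to 1.04 (limma adjusted p = 0.390). Its transcript had the highest GC share of the 9, 56.7%, and its log2 change of -0.23 became -0.12 without siCTL replicate 2, while removal of the base-content trend left -0.027. Irf3 shares 88 exonic bases with the opposite-strand gene Bcl2l12, which had 163 ± 5.53 normalised reads in libraries labelled siTET3 and 214 ± 35.4 in siCTL libraries (SD, n = 3). The upper ends of the intervals were 1.38-fold for Mavs and 1.34-fold for Tbk1, so changes below those sizes were not resolved.

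Adar and Eif2ak2 had the highest normalised reads of the 9 in libraries labelled siTET3, and smaller log2 changes than the sensors that passed. Adar (ENSMUSG00000027951.16, chromosome 3, 89715022 to 89753446, plus strand), which encodes the enzyme that converts adenosine to inosine in double-stranded RNA and so marks it as self, had 4929, 4901 and 4980.5 normalised reads in libraries labelled siTET3. In siCTL libraries Adar had 3777, 3619 and 3990.4. The groups were apart, and the siTET3-labelled libraries lay close together. The fold was 1.30, with a 95% interval from 1.14 to 1.49 (limma adjusted p = 0.188). Chrnb2, a gene on the opposite strand, covers 16.8% of the exonic bases of Adar and had 219 ± 11.1 normalised reads in libraries labelled siTET3 and 240.2 ± 19.0 in siCTL libraries (SD, n = 3), with ranges that overlapped.

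Eif2ak2 (ENSMUSG00000024079.4, chromosome 17, 78852564 to 78882573, minus strand), the gene of PKR, had 4741, 4603 and 4973 normalised reads in libraries labelled siTET3, against 3337, 2857 and 3669 in siCTL libraries. The groups were apart, with siCTL replicate 2 the lowest. The fold was 1.46, with a 95% interval from 1.21 to 1.76 (limma adjusted p = 0.183). Without siCTL replicate 2 both genes passed, Adar with a log2 change of 0.35 and Eif2ak2 with one of 0.45 (limma adjusted p = 0.0236 and 0.0212), as did Dhx58. Neither Adar nor Eif2ak2 passed when another library was left out, where the limma adjusted p of each reached 0.660. Removal of the base-content trend moved Adar to 0.50 and Eif2ak2 to 0.37, and neither passed (limma adjusted p = 0.182 and 0.238). The exact permutation p of Adar, Eif2ak2, Dhx58, Tbk1, Ddx58 and Ifih1 was 0.1, the smallest possible here, and that of Irf3 and Mavs was 0.2 and 0.9.

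The authors' deposited table, made with DESeq2, lists 6 of the 9 members as higher at the same threshold, beside 1.55% of all genes. It gives adjusted p-values of 9.2e-24 for Zbp1, 2.5e-22 for Ddx58, 2.2e-13 for Ifih1, 0.000221 for Adar, 0.000266 for Dhx58 and 0.00333 for Eif2ak2. It lists Tbk1, Irf3 and Mavs at 0.320, 0.377 and 0.786. The difference between limma and DESeq2 therefore concerns Adar, Dhx58 and Eif2ak2, whose log2 changes were 0.38, 0.55 and 0.54 by limma and 0.38, 0.54 and 0.54 in the authors' deposited table, turned here to siTET3 over siCTL.

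Per kilobase of merged exons, levels could be set side by side between genes. In libraries labelled siTET3 the order was Tbk1, Eif2ak2, Dhx58, Mavs, Adar, Irf3, Ddx58, Ifih1 and Zbp1, and no neighbouring pair overlapped. Levels per kilobase ran from 1029 ± 50.8 for Tbk1 to 173 ± 13.5 for Zbp1 in libraries labelled siTET3 (SD, n = 3). In siCTL libraries they ran from 898 ± 64.1 for Tbk1 to 45.8 ± 7.21 for Zbp1 (SD, n = 3). The siCTL order was Tbk1, Mavs, Eif2ak2, Dhx58, Irf3, Adar, Ddx58, Ifih1 and Zbp1, and the libraries overlapped between neighbours from Mavs through Adar. The 3 genes that rose were thus the 3 with the lowest levels per kilobase in both groups. Per kilobase, LGP2 mRNA stood above that of the sensors it tunes, with Dhx58 at 862 ± 11.01, Ddx58 at 383 ± 14.0 and Ifih1 at 253 ± 11.2 in libraries labelled siTET3 (SD, n = 3). In siCTL libraries the same 3 genes stood at 592 ± 60.5, 182 ± 13.1 and 143 ± 8.73 per kilobase (SD, n = 3). The size of this gap depends on the merged lengths, 3272, 7050 and 8165 bases, which count every annotated exon, used in these cells or not. Before division by length, their mean normalised reads were 2821, 2702 and 2069 in libraries labelled siTET3, and 1936, 1284 and 1168 in siCTL libraries.

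**Figure D3:**
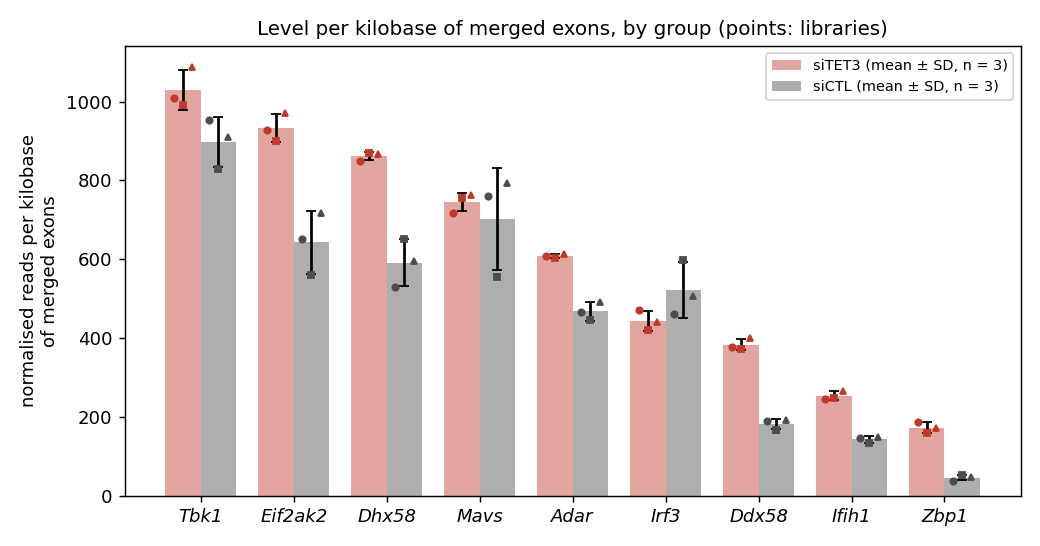
Normalised reads per kilobase of merged exons (vertical axis, from 0) for each member, siTET3-labelled libraries in red left of siCTL libraries in grey, with bars for the mean ± SD over 3 libraries and points for single libraries. Tbk1 is highest and Zbp1 lowest in both groups.

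Ratios of 2 members within a library do not depend on how libraries were scaled, and these were chosen after values were seen and are given as a description. For each 100 Ifih1 per length there were 154, 150.2 and 150.0 of Ddx58 in libraries labelled siTET3, against 128, 126 and 129 in siCTL libraries, so the balance of both sensors differed little within a group. For each 100 Mavs there were 52.5, 49.5 and 52.3 of Ddx58 in libraries labelled siTET3, against 24.8, 30.2 and 24.1 in siCTL libraries. For each 100 Adar there were 30.8, 26.5 and 28.0 of Zbp1 in libraries labelled siTET3, against 8.25, 11.8 and 9.43 in siCTL libraries. The Z-nucleic acid sensor was thus a larger part of the pair in every siTET3-labelled library. For each 100 Ddx58 there were 225, 233 and 217 of Dhx58 in libraries labelled siTET3, against 281, 389 and 311 in siCTL libraries. Summed per kilobase over the 9 members, the level was 5432 ± 133 in libraries labelled siTET3 and 4195 ± 207 in siCTL libraries (SD, n = 3). Of that sum, Zbp1 took 3.18% ± 0.247 in libraries labelled siTET3 and 1.10% ± 0.208 in siCTL libraries, while Adar took 11.2% ± 0.180 in libraries labelled siTET3 and 11.1% ± 0.0481 in siCTL libraries (SD, n = 3).

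The tested genes whose values followed each called member most closely were found by Pearson's r of log2(value + 1) over the 6 libraries, a measure set largely by the group difference and by what the libraries share. For Ddx58 these were Ifih1 (r = 0.999), Parp14 (r = 0.999) and Slfn5 (r = 0.998). For Ifih1 they included Ddx58 (r = 0.999) and Parp14 (r = 0.998). For Zbp1 they were Ifit3, Melk and Cdc25c (r = 0.998, 0.997 and 0.995).

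Around the helicases, 32 partners were listed, from the ubiquitin ligases that activate RIG-I to the kinases and brakes of MAVS signalling, and 30 were tested. Irf7, the interferon-inducible relative of Irf3, rose, 0 fell and 29 did not pass, with a list median of 0.063. Irf7 had 7588, 7125 and 6866 normalised reads in libraries labelled siTET3, against 2701, 2327 and 3087 in siCTL libraries, a log2 change of 1.42 (limma adjusted p = 0.00916). The groups of Irf7 were far apart, where those of Irf3 overlapped. At an unadjusted p under 0.05, 2 of the 30 were higher and 1 lower, 6.25% and 6.95% being the shares over all genes. DESeq2 and edgeR each called 1 higher, beside 1.56% and 0.278% of all genes, and 0 lower. The call of Irf7 was lost without siTET3 replicates 1, 2 and 3 in turn (limma adjusted p = 0.125, 0.104 and 0.112) and held without each siCTL library.

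Among 18 other proteins described as RNA sensors or co-sensors, Ifit1, Oas1a and Oas2 rose, 0 fell and 15 did not pass, and the median log2 change was 0.35. Ifit1, which binds viral RNA by its cap structure, had 253, 181 and 232 normalised reads in libraries labelled siTET3, against 30.1, 34.2 and 41.8 in siCTL libraries, a log2 change of 2.61 (limma adjusted p = 0.00691). Oas2, a synthetase of the oligoadenylate that activates RNase L, had 1099, 1158 and 1389 in libraries labelled siTET3, against 431, 441 and 453 in siCTL libraries, a log2 change of 1.45 (limma adjusted p = 0.00691). Neither gene overlapped between groups. Oas1a, of the same enzyme family, had a log2 change of 0.65 (limma adjusted p = 0.0437), and did not pass without the variance trend (limma adjusted p = 0.0626). Oas1a has close paralogues in mouse, so its count is uncertain. At an unadjusted p under 0.05, 7 were higher, beside 6.25% of all genes, and 0 lower, beside 6.95%. DESeq2 called 7 higher, beside 1.56% of all genes. Among those were Ddx60 and Oas3, with log2 changes of 1.91 and 1.15, which limma did not call (limma adjusted p = 0.0926 and 0.0510). Without siCTL replicate 2, 6 passed, beside 1.7% of all genes. Without siTET3 replicates 1, 2 and 3 in turn none of Ifit1, Oas1a and Oas2 passed. Without siCTL replicates 1 and 3 Oas1a did not (limma adjusted p = 0.125 and 0.183). Oas2 was also lost without siCTL replicate 3 (limma adjusted p = 0.0715).

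The list of cytosolic DNA sensing by cGAS and STING and of enzymes that clear self nucleic acid had 15 tested genes, with a median log2 change of 0.20. Limma called 0 of them, with 1 higher, beside 6.25% of all genes, and 0 lower, beside 6.95%, at an unadjusted p under 0.05. By edgeR with TMM 0 were called. With the authors' size factors edgeR called 1 higher, beside 36 genes in all, and DESeq2 called the same 1, beside 1.56% of all genes. That gene was Trex1, the exonuclease that degrades cytosolic DNA, which had 1635, 1889.7 and 1646 normalised reads in libraries labelled siTET3, against 1066, 1025 and 941 in siCTL libraries. Its groups were far apart beside their spread, with a log2 change of 0.77 and a limma adjusted p of 0.0501. Trex1 passed where siCTL replicate 2 was left out (limma adjusted p = 0.0109). It also passed with the base-content trend removed, a pseudocount of 4 or a mean of at least 50 (limma adjusted p = 0.0377, 0.0493 and 0.0460). Trex1 did not pass when any other library was left out (limma adjusted p = 0.118 to 0.348). Nor did it pass with scaling to the library total or without the variance trend (limma adjusted p = 0.0571 and 0.0755). Supv3l1, a mitochondrial RNA helicase, was next by p, with a log2 change of 0.27, or 0.16 without siCTL replicate 2 (limma adjusted p = 0.378 and 0.226).

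**Figure D4:**
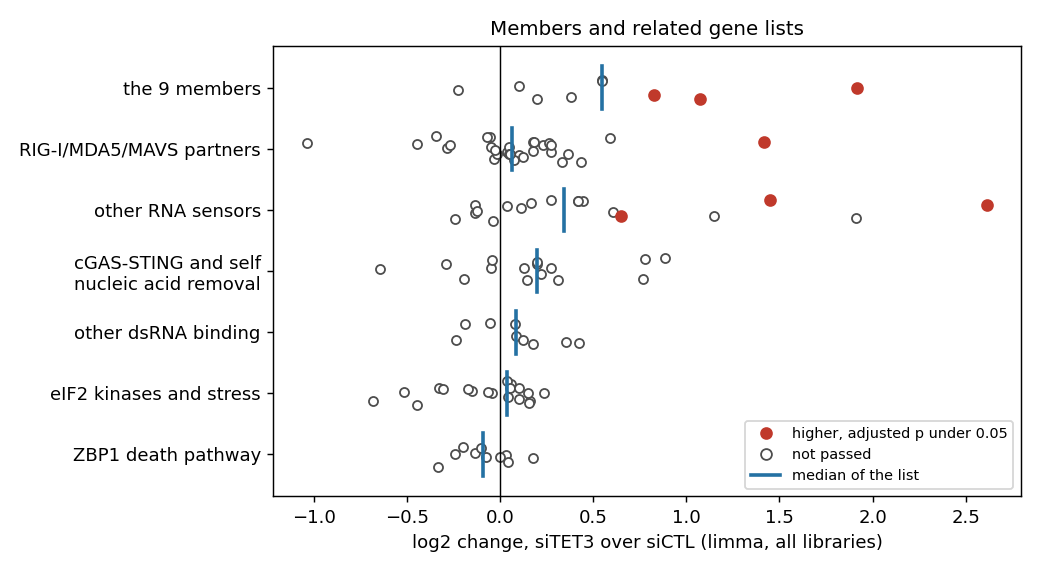
Log2 change of each tested gene, siTET3-labelled over siCTL libraries (horizontal axis, limma), for the 9 members and 6 related lists, with red points for genes past the threshold and blue bars for list medians. Called genes lie in the members, the helicase partners and the other RNA sensors, and the medians of the other lists lie between -0.091 and 0.20.

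The remaining lists had no call. At an unadjusted p under 0.05, the limma shares over all genes tested were 6.25% higher and 6.95% lower, to be set beside each count below. Of 10 tested proteins of the death pathways that ZBP1 can trigger, such as RIPK1, RIPK3 and MLKL, limma, edgeR and DESeq2 called 0, and 0 had an unadjusted p under 0.05. Mlkl, the executioner of necroptosis, had a log2 change of -0.20 and Casp6, a caspase linked to ZBP1, of -0.25 (limma adjusted p = 0.408 and 0.375). Without siCTL replicate 2 that of Mlkl was -0.090. Beside the 3.78-fold rise of Zbp1, the list median was -0.091. Of 19 genes of the eIF2 kinases, eIF2B and stress granules, limma, edgeR and DESeq2 called 0, with 0 higher and 1 lower at an unadjusted p under 0.05. Ddit3, a stress-induced transcription factor, had a log2 change of -0.69 and Ppp1r15a, the phosphatase subunit that reverses PKR action, of -0.31 (limma adjusted p = 0.374 for each). Ddit3 had 1713, 1693 and 1670.4 normalised reads in libraries labelled siTET3, against 1985, 4386 and 2315 in siCTL libraries, and siCTL replicate 2 was far above the other 5 libraries. Without that library the log2 change of Ddit3 was -0.34 and that of Ppp1r15a -0.19 (limma adjusted p = 0.0715 and 0.235). Ddit3 passed as lower, at -0.41, where the base-content trend was also removed (limma adjusted p = 0.0323). Removal of the trend alone, over all libraries, left Ppp1r15a at -0.13. Of 9 tested genes of other double-stranded RNA binding proteins, limma, edgeR and DESeq2 called 0, with 2 higher and 0 lower at an unadjusted p under 0.05. These were Stau2 and Strbp, with log2 changes of 0.42 and 0.35 (limma adjusted p = 0.372 and 0.363). The changes were 0.24 and 0.24 without siCTL replicate 2, while removal of the base-content trend left 0.20 and 0.064.

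Interferon mRNA itself was barely detected. Of 21 type I, II and III interferon genes, 19 were at 0 in every library and none passed the filter on low values. Ifnb1, the interferon that IRF3 induces directly, had 6 reads in siTET3 replicate 2 and 0 in the other 5 libraries. Ifna2 had 3 reads in siTET3 replicate 3 and 0 elsewhere, and close copies among the Ifna genes make its assignment uncertain. A count of 0 allows up to 3 reads, or 1.90 to 3.82 normalised reads by library, for counting error only, so differences below that level were not detectable at this depth.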

How the data were processed

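Per the file headers, the deposited table holds signal values, that is gene counts the authors divided by 1 size factor per library, with the authors' DESeq2 log2 fold changes (siCTL over siTET3 by the means, turned here), a Wald score and p-values. The score was not used. The builds GRCm38 and mm10 come from the submitters' processing notes, and no source used here names the aligner, the counter or its strand setting. Divided by what 1 read is worth in its library, 100% of the deposited values came out whole, to within 0.001 reads, so whole reads were recovered. Libraries held 29587171 to 61709131 reads.

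The design assumed normalised values, so limma 3.58.1 in R 4.3.3 with a variance trend was fitted to log2(value + 1) of the 11591 genes with a mean of at least 10, with group as the only term and Benjamini-Hochberg adjustment at 0.05. Intervals cover 95%. Log2 changes on this scale understate those of low genes. edgeR 4.0.16 and DESeq2 1.42.0 were run on recovered reads, where edgeR with TMM called 32 genes higher and 7 lower. Other alternatives varied the pseudocount, filter, scaling, variance trend, left-out library, replicate block and a spline of GC share per library. The main limma fit, its replicate block and base-content forms, edgeR and DESeq2 were tested on simulated counts. The simulation held no base-content trend and no deviating library, so it cannot tell how the fits handle those. The other alternatives and the permutation test were not simulated. Exact two-sided permutation tests over the 20 assignments were run for single genes with scipy 1.17.1. Exon lengths, overlaps, coordinates and GC share came from GENCODE M21 on GRCm38, and starts and windows from RefSeq on GRCm38.p6.

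The members and lists were chosen with earlier results of these data known. Named genes are the members, Tet3, up to 4 called genes of each list or else the 2 with the smallest p, and the 3 genes most like each called member, of which 1 is not reported here. Chrnb2 and Bcl2l12 were named for their overlap with members, and Ddx60 and Oas3, after values were seen, for the size of their change. The planned protein comparison was not used here.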

Additional observations from a re-analysis of the deposited data

How the results depend on the processing

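The log2 changes of Zbp1, Ddx58, Ifih1, Dhx58, Adar, Eif2ak2, Tbk1 and Irf3 kept their sign in all 19 alternatives. That of Mavs ran from -0.060 to 0.20 when 1 library was left out, negative only without siCTL replicate 2, and was -0.00050 without that library and with the base-content trend removed. Where a value moved, the cause was not tested.

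With all libraries limma called 3 members, 34 genes and 4 pathway genes higher, and 7 genes lower. DESeq2 on recovered reads called 6 members, 180 genes and 9 pathway genes higher and 164 genes lower. Fits that left out 1 library called 0 to 6 members higher, 2 to 197 genes higher and 0 to 123 lower and 0 to 8 pathway genes higher, with a median log2 change of the members of 0.45 to 0.55 against 0.54. Leaving out siCTL replicate 2 and removing the base-content trend gave 6 members, 238 genes and 8 pathway genes higher, 159 genes and 1 pathway gene, Ddit3, lower and a median of 0.40. The 0 members came without siCTL replicate 3 or any siTET3 replicate, where 6 members were higher at an unadjusted p under 0.05, as were 623, 309, 322 and 294 of all genes without siCTL replicate 3 and siTET3 replicates 1, 2 and 3. The 6 came without siCTL replicate 2. Genes called lower numbered 4 with no filter on low values, 2 with scaling to the library total, 11 without the variance trend and 4 with the base-content trend removed. In that last fit 3 members passed, of which 2 were shared with the 3 called, with Dhx58 in place of Ifih1. Scaling to the library total left 2, since Ifih1 had a limma adjusted p of 0.0571.

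With the replicate number as a block, 0 members, 1 gene and 0 pathway genes were higher and 0 genes lower (6 members and 1175 genes at an unadjusted p under 0.05 in either direction), and with the base-content trend removed as well 0 members, 4 genes and 0 pathway genes were higher and 0 genes lower. The labels do not say whether the numbers pair the libraries. Deviations of same-numbered libraries had correlations of 0.032, -0.062 and -0.0965, and those of other pairs ran from -0.085 to 0.109. These cannot decide on pairing, because the deviations of a gene cancel within each group. Depth limits what can be said of the interferon genes. Each member had at least 117 reads in every library.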
